A study of Mus musculus with 26 samples.

Results

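Embryonic stem cell-like cells labelled Prdm14 knockout were compared between 2 media, serum with LIF and 2i, on 4 of the series' 26 Affymetrix arrays. The members were chosen by their titles alone, 2 arrays of knockout cells in serum and 2 of knockout cells in 2i. The cells were C57BL/6 and male and grew on mouse embryonic fibroblasts (MEF), so that each RNA could also hold feeder RNA. For 2i, N2B27 held LIF at 1000 units per ml together with CHIR99021 at 3 uM, which inhibits GSK3, and PD0325901 at 0.4 uM, which inhibits MEK. For serum, cells spent 2 days in GMEM with 20% fetal bovine serum and the same dose of LIF, without either inhibitor. Medium and inhibitors changed together, so an effect of serum and an effect of inhibitor removal cannot be told apart. Further groups of 2 arrays each are used beside these 4. AGP14 cells carry the same Prdm14 knockout plus a pPyCAG transgene for an Avitag-EGFP-Prdm14 fusion, and wild-type cells are Prdm14(+/+); both were grown in 2i and in serum. Knockout cells were also kept 2 days in serum with 0.4 uM PD0325901 and 2 days in serum without LIF. The labels do not give how many clones each line stands for or where the knockout deletion lies.

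Mouse embryonic stem cells can hold a naive state, that of the early epiblast, which rests on a network of transcription factors such as Nanog, Esrrb, Klf4 and Tfcp2l1. In 2i, blocking MEK holds FGF and ERK signalling down and blocking GSK3 stabilises beta-catenin, and both favour the naive network. In serum, FGF4 made by the cells themselves activates ERK, and cells can move toward a formative state marked by Otx2, Pou3f1, Fgf5 and the de novo DNA methyltransferases. Prdm14, a PR-domain protein of naive cells and germ cell precursors, is known to hold back FGF receptor signalling and de novo methylation. The comparison of media in these cells asks what changes from 2i to serum when Prdm14 is meant to be absent.

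The deposited values are on a log scale, taken as log2, with 1 value per probe set. Differences below are log2 differences, serum minus 2i, with the standard error (SE) of a limma model over all 26 arrays. A gene is said to have risen or fallen where its limma p, adjusted by Benjamini-Hochberg over all 18193 genes, was under 0.05. Some gene lists below are said to have no rise or no fall from 2i to serum in knockout or AGP14 arrays. There, 0 members passed in that direction at an unadjusted limma p under 0.05 either, and no other tool was run. A count of 0 in another comparison, or with other settings, rests on the adjusted p alone. The arrays fall into 2 sets by the poly-A control lys, which is added to RNA before labelling: it lay between 13.4 and 13.5 on 12 arrays and between 6.86 and 7.44 on the other 14. Both knockout 2i arrays were in the high set and both knockout serum arrays in the low set, so that medium and set cannot be told apart in the 4 arrays. The same holds for wild type. AGP14 2i and AGP14 serum both lay in the low set, and knockout 2i and knockout serum with MEK inhibitor both in the high set. These 2 comparisons, each within 1 set, are therefore given beside the knockout values. So is a comparison of knockout serum with AGP14 2i, which lies within the low set but also differs by the transgene. The 2 knockout arrays of a medium correlated at 0.983 in 2i and 0.981 in serum over the 18193 genes, with 1 probe set each. Whether they came from separate cultures is not given, so the spread behind the p-values is that between arrays and may be technical.

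Serum was accompanied by broad change in the knockout arrays. Of 18193 genes, 2872 rose (15.8%) and 3634 fell (20.0%). A difference of at least 2-fold was seen in 882 of the rises and 1267 of the falls, and of at least 8-fold in 48 and 72. The split depends on the scaling: after quantile normalization 3854 genes rose and 2845 fell. Within 1 lys set, AGP14 cells had 1814 rises (9.97%) and 1495 falls (8.22%). Of the knockout rises, 1087 were also rises in AGP14, which is 37.8% of the knockout rises and 59.9% of the AGP14 rises. The falls shared 1119 genes, 30.8% of the knockout falls and 74.8% of the AGP14 falls. Calls went opposite ways for 23 knockout rises and 122 knockout falls. The AGP14 counts moved with single arrays, to 1149 and 950 without 2i replicate 1, 1134 and 835 without 2i replicate 2, and 850 and 885 without serum replicate 1. With AGP14 2i in place of knockout 2i, 2853 genes were higher (15.7%) and 2408 lower (13.2%) in knockout serum. Knockout serum with MEK inhibitor gave 1202 rises (6.61%) and 1199 falls (6.59%) against the same 2i arrays. An additive model of line, medium and lys set over the 22 stem cell arrays gave 2109 rises (11.6%) and 1491 falls (8.20%). That model takes the medium to act alike in all lines, and its medium term is set mainly by the AGP14 arrays, where the set does not change. Each list count below is to be set beside the share over all genes given here for its comparison. A count near that share shows nothing particular to the list.

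The probe set of Prdm14 itself gave 11.33 and 11.24 on the knockout 2i arrays and 5.40 and 6.47 on the knockout serum arrays. It was thus high in 2i and far lower in serum, in cells whose label says that the gene was knocked out. The fall was -5.35 (SE 0.41, limma adjusted p = 1.20e-08). AGP14 cells had a fall of -2.83 and wild-type cells one of -2.54, from 2i means of 9.21 and 9.18. Whether the probe set also detects the AGP14 transgene is not given, so what the AGP14 values measure is not known. The knockout fall was larger than the wild-type fall by -2.81 (adjusted p = 0.0138). Whether this probe set lies outside the deleted stretch is not given, and one outside it would check no knockout label. The values go against a simple reading of the label, so "knockout" below is the label's word.

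Car4, a membrane-bound carbonic anhydrase, had the largest rise, from 2.39 and 3.37 in 2i to 9.95 and 9.54 in serum, a difference of 6.87 (SE 0.71). Its 2i values lay near the lower quartile of the arrays (3.2 to 3.28), where low values have little order, so the size is approximate; it was 6.56 with values under 3 set to 3. The same caution holds for 7 of the 15 largest rises, Car4 included, whose 2i means were below that quartile; the other 6 were Gm9564, Fgf5, Wt1, Cnn1, Vrtn and Irs4, with differences of 3.25 to 6.21 at that floor. Among the 15 largest rises were the formative genes Fgf5 (6.05), Otx2 (5.56) and Pou3f1 (5.08). Wt1, a zinc-finger factor best known from kidney and gonad, rose by 4.71, and Dll1, a Notch ligand, by 3.82. Cnn1, which encodes the smooth muscle protein calponin, rose by 4.27, the iron exporter gene Slc40a1 by 3.94 and the stress gene Gadd45g by 3.85. Irs4, an adaptor of insulin-type receptors, rose by 3.88, the fatty acid transporter gene Slc27a2 by 3.81, the transcription factor gene Myrf by 4.32 and Vrtn by 4.15. Gm9564 (6.45) and Psors1c2 (4.29) completed the 15. In AGP14 cells 14 of these 15 genes also rose, by 2.08 to 4.71; Psors1c2 did not pass there (1.23, adjusted p = 0.0569).

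In the formative and primed list, 8 of 15 measured genes rose and 1 fell, with a median of 0.48 against 0.01 over all genes; without 2i replicate 2 it had 2 falls. Fgf5, an FGF ligand of the postimplantation epiblast, gave 3.66 and 2.08 in 2i and 9.24 and 8.61 in serum. Pou3f1, a POU factor of the same stage, gave 5.69 and 6.09 in 2i and 10.89 and 11.05 in serum (SE 0.44, adjusted p = 4.68e-08). For both genes the media lay several units apart. Arrays of the 2 media did not overlap in 64.4% of all genes, and the largest rises were named from such genes only. Otx2, which directs the exit from the naive state, gave 3.40 and 7.66 in 2i and 11.11 and 11.07 in serum, so its 2i arrays disagreed by more than 4 units while its serum arrays were alike. Grhl2, a factor of epithelial identity, rose by 3.61 and the SOX factor genes Sox4 and Sox3 by 1.56 and 2.76; each of the Sox genes has a further probe set of opposite sign. The single fall in the list was Epha4, an ephrin receptor, at -2.77; it was named after its value was seen. AGP14 cells had 10 rises and 1 fall in the list, with a median of 0.73. Knockout cells in serum with MEK inhibitor, compared with the same 2i arrays, had 6 rises, among them Otx2 (4.29), Fgf5 (2.60) and Pou3f1 (2.33).

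**Figure D1:**
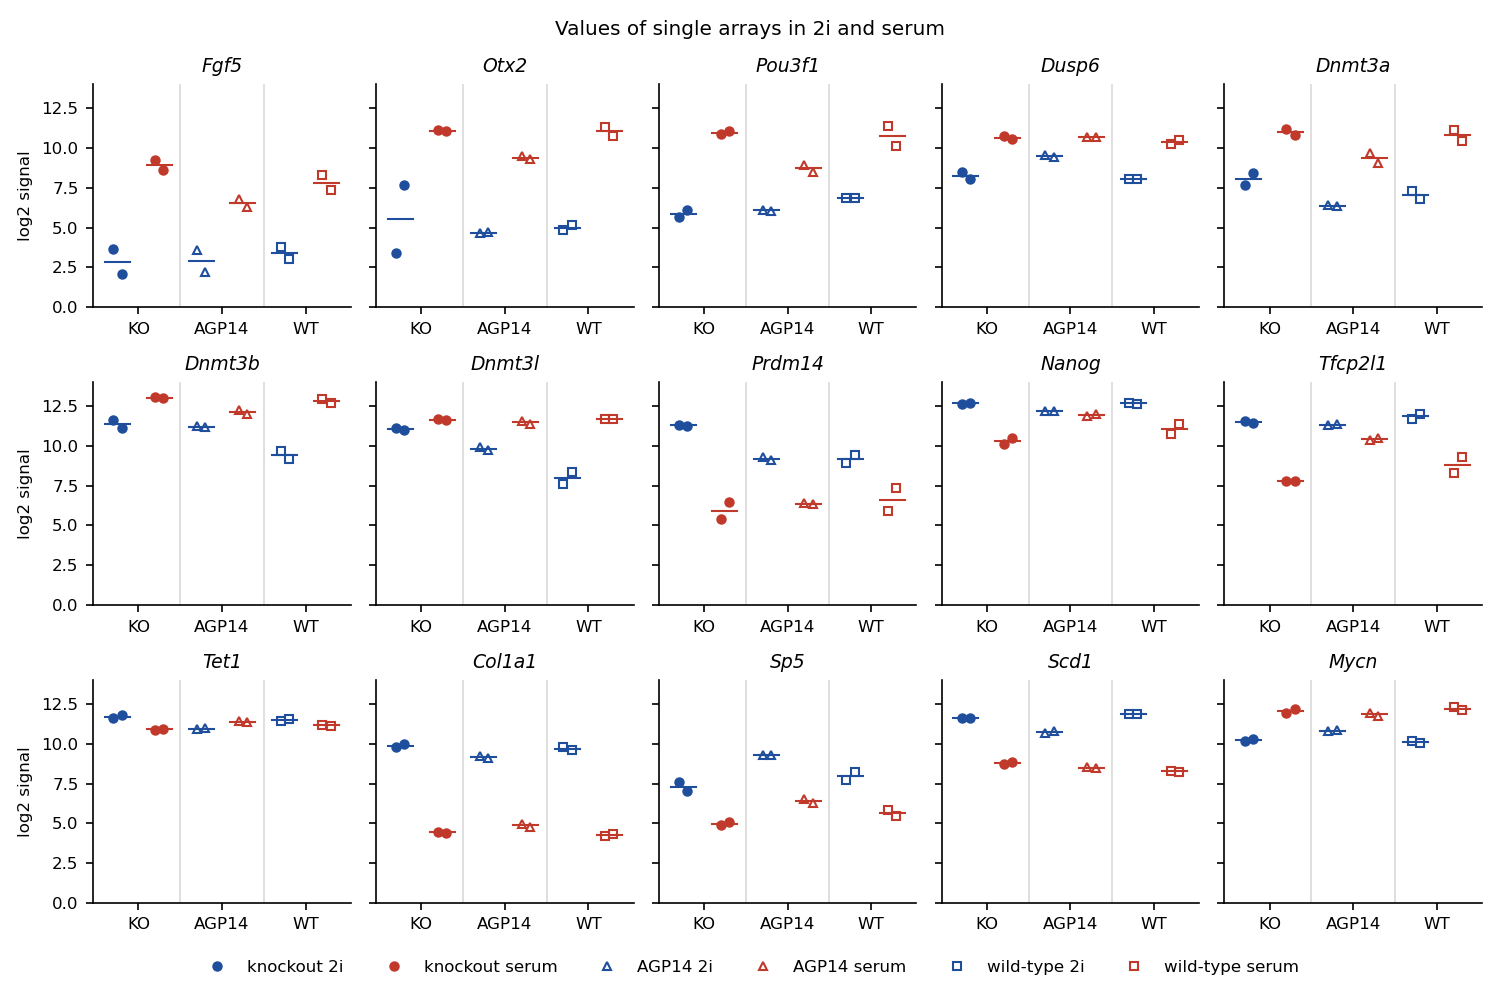
Log2 signal of 15 genes on single arrays, 2 per group, in 2i (blue) and serum (red), for cells labelled knockout (KO, filled circles), AGP14 (triangles) and wild type (WT, squares); short lines are group means. In the knockout arrays Fgf5, Otx2, Pou3f1 and Dnmt3a lie higher in serum and Prdm14, Nanog, Tfcp2l1 and Col1a1 lower, and the Nanog arrays of AGP14 lie close together in both media.

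The FGF ligand and receptor list had 4 rises and 1 fall among 11 genes, with 2 falls without serum replicate 1 and 2 rises with probe sets averaged. Fgf15 gave 3.92 and 4.04 in 2i and 7.35 and 6.85 in serum, a rise of 3.12 (SE 0.24, adjusted p = 1.03e-08). It rose by 1.55 in AGP14. The receptor gene Fgfr2 rose by 1.08 and the ligand gene Fgf17 by 0.65, with a further probe set of opposite sign. Fgfr1, a main FGF receptor gene of embryonic stem cells, fell from 9.36 and 9.31 to 8.33 and 8.03, by -1.16 (adjusted p = 3.56e-07), and by -0.84 in AGP14.

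Genes that ERK signalling induces rose in part. In the ERK response list 6 of 15 genes rose and 1 fell, with a median of 0.29. Myc rose from 6.07 and 5.67 to 8.13 and 8.12, a difference of 2.25 (SE 0.21). Of the ETS factor genes driven by FGF, Etv4 rose by 2.03 and Etv5 by 0.67. The immediate early gene Egr1 gave 9.13 and 9.74 in 2i and 11.06 and 11.41 in serum, a rise of 1.80 (adjusted p = 1.02e-04). Its rise in AGP14 was 4.47, from a lower 2i mean of 7.08, and the 2 rises differed (-2.67, adjusted p = 3.64e-04), a difference that also crosses the lys sets. Junb rose by 0.66; its call was lost without 2i replicate 1 (adjusted p = 0.0688). Fos was the single fall, from 10.94 and 11.75 to 10.30 and 10.58 (-0.91, adjusted p = 0.00691), and it is named after its value was seen. Its call was lost without 2i replicate 2 (adjusted p = 0.171) or serum replicate 1 (adjusted p = 0.0708). Fos rose in AGP14 by 1.36 and was higher by 1.21 in knockout serum than in AGP14 2i. Lys set and line cannot be told apart in these values.

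Feedback inhibitors of the same pathway are commonly read as a record of ERK activity. Of 11 such genes 6 rose and 1 fell, with a median of 0.29. Dusp6, a phosphatase of ERK, gave 8.49 and 8.06 in 2i and 10.77 and 10.56 in serum. Its rise of 2.39 (SE 0.11, adjusted p = 2.58e-11) was larger than the 1.19 of AGP14 by 1.21 (adjusted p = 5.28e-05), with the knockout serum level of 10.67 close to that of AGP14 serum at 10.68. Dusp4 rose by 2.69, the Sprouty gene Spry4 by 2.07 and the Spred gene Spred3 by 1.16. Dusp14, a phosphatase with wider substrates, fell by -2.14. With MEK inhibitor left in serum, Dusp6 was above 2i by 0.85, while Spry4 (-0.15) and Dusp4 (0.72) did not pass.

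Of 8 genes of the DNA methylation machinery 4 rose and 3 fell. The rises were 2 without 2i replicate 2. The falls were 1 without 2i replicate 1 or serum replicate 2 and after quantile normalization, and 0 in the additive model with lys set. Dnmt3a, a de novo methyltransferase, gave 7.71 and 8.43 in 2i and 11.19 and 10.80 in serum, a rise of 2.92 (SE 0.36) beside 3.00 in AGP14 and 3.77 in wild type. Dnmt3b rose from 11.66 and 11.13 to 13.06 and 13.01, by 1.64 (SE 0.25). Dnmt3l, the catalytically inactive partner of both, stood at 11.15 and 10.98 in knockout 2i and at 11.67 and 11.62 in knockout serum. That rise of 0.58 (adjusted p = 0.0121) was lost without 2i replicate 2 (adjusted p = 0.0937) or serum replicate 1 (adjusted p = 0.0644). Wild-type Dnmt3l rose by 3.69, from a 2i mean of 8.0 to 11.68, so that the serum levels were alike and the 2i levels were not. The difference of the 2 rises was -3.10 (SE 0.242, limma adjusted p = 1.55e-06). Dnmt3b showed the same kind of difference, with a wild-type rise of 3.39 (difference -1.75, adjusted p = 0.0128). Zfp57, which protects imprints, fell by -1.78 (adjusted p = 1.25e-08) in the knockout arrays and was at -0.045 in AGP14 (adjusted p = 0.882).

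Among 5 demethylation genes 3 fell and none rose. Tet1, which oxidises 5-methylcytosine, went from 11.61 and 11.79 to 10.89 and 10.94, a fall of -0.79 (SE 0.07, adjusted p = 8.43e-08). Tet2 went from 10.04 and 9.94 to 8.16 and 8.28 (-1.77), and the base excision gene Smug1 fell by -0.62. In AGP14, Tet1 rose by 0.45 and Tet2 did not pass at 0.57. Against AGP14 2i, knockout serum was lower by -0.035 for Tet1 (adjusted p = 0.780) and by -0.45 for Tet2 (adjusted p = 0.213). In the additive model with lys set both turned: Tet1 was a rise of 0.57 (adjusted p = 0.00532), and Tet2 stood at 0.79 (adjusted p = 0.0663). The falls of Tet1 and Tet2 were thus not called in these comparisons, which rest mainly on AGP14 arrays. No comparison of knockout serum with knockout 2i lies within 1 lys set, so set and line cannot be told apart here.

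Germline genes, many of them kept silent by promoter methylation, rose and did not fall: 9 of 17 were higher, with a median of 0.99, and AGP14 had 7 higher with a median of 0.72. In knockout serum with MEK inhibitor 1 of 17 was higher than in the same 2i arrays, with a median of 0.265, beside 6.61% of all genes. Knockout serum against AGP14 2i had 6 higher and 1 lower. From knockout 2i to knockout serum, Piwil2, of the piRNA pathway, rose from 5.67 and 5.70 to 7.57 and 7.39, by 1.79 (SE 0.18). Mael, of the same pathway, rose by 1.94, the meiotic synaptonemal gene Sycp1 by 1.94 and the germ cell ADP/ATP carrier gene Slc25a31 by 2.69. Dazl, a germ cell RNA-binding protein gene, rose by 1.33, and was at -0.025 in knockout serum against AGP14 2i (limma adjusted p = 0.966). The count was 5 without serum replicate 1 and also 5 where only the 4 knockout arrays were fitted.

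Naive pluripotency genes fell widely. Of 20 measured, 17 fell and 2 rose, with a median of -1.78. Prdm14, the targeted gene, is on this list and among the falls, though what its probe set measures in these cells is unclear. Nanog gave 12.65 and 12.73 in 2i and 10.14 and 10.50 in serum, a fall of -2.37 (SE 0.18, adjusted p = 1.38e-08). Tfcp2l1, a STAT3 target that sustains self-renewal, gave 11.56 and 11.44 in 2i and 7.79 and 7.81 in serum, a fall of -3.70 (SE 0.29). Its 2 further probe sets stood at -1.515 and -0.615. The arrays of each medium agreed closely for both genes and the media did not overlap, as in 64.4% of all genes. Zfp42, also called Rex1, fell by -1.21. Of members outside the 5 with the smallest p, named after their values were seen, Tbx3 fell by -3.39, the nuclear receptor genes Nr5a2 and Esrrb by -2.84 and -2.15, and Klf4 by -2.17. The 4 further probe sets of Tbx3 lay between -3.56 and 0.52. The rises were Dppa3, also called Stella (2.01), whose call was lost without 2i replicate 1 (adjusted p = 0.296) or serum replicate 2 (adjusted p = 0.237), and Gbx2 (1.09), lost without 2i replicate 2 or either serum replicate (adjusted p = 0.0505 to 0.281). Dppa5a did not pass at 0.01.

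In AGP14, 3 of the 20 genes fell and 1 rose, with a median of -0.045. Nanog was at -0.24 there (adjusted p = 0.425), Esrrb at -0.02 and Klf4 at -0.48 (adjusted p = 0.434), while Tfcp2l1 fell by -0.86. The difference between knockout and AGP14 passed for 17 of 20 members, Prdm14 included, all more negative in knockout, beside 9.74% of all genes. It was -2.83 for Tfcp2l1 (limma adjusted p = 1.72e-04) and -2.12 for Nanog (adjusted p = 3.05e-05). That difference crosses the lys sets on its 2i side. Within the low set, knockout serum was below AGP14 2i for 15 of 20 genes, beside 13.2% of all genes, with a median of -1.18. Nanog lay lower by -1.87 and Tfcp2l1 by -3.52 in that comparison, beside -2.37 and -3.70 across the sets. The line also differs there, so these sizes do not separate set from line. Within the high set, 2 of 20 genes were lower in knockout serum with MEK inhibitor than in the same 2i arrays. The share over all genes was 6.59%, the median of the list was -0.30, and Nanog was at -0.11. In wild type 15 fell, beside 19.4% of all genes, with a median of -1.10. In the additive model with lys set 1 of 20 naive genes fell and 1 rose, with Nanog at -0.07 (adjusted p = 0.864) and Tfcp2l1 at -0.64 (adjusted p = 0.142). Naive falls were thus widely called across the sets, and against AGP14 2i, where the line also differs. Few were called with MEK inhibitor kept in serum, or in the additive model. That model both removes a shift between sets and takes the lines to respond alike. Set, line and medium cannot be told apart in these values.

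Core pluripotency genes were mixed. Of 12 genes 3 rose and 2 fell, with a median of 0.06; without 2i replicate 1 the rises were 1. Pou5f1, the central POU factor of pluripotency, gave 12.74 and 12.72 in 2i and 12.33 and 12.44 in serum, a fall of -0.35 (SE 0.05, adjusted p = 3.46e-05). It was at -0.055 against AGP14 2i (adjusted p = 0.497). Gdf3 fell by -0.86. Dppa4 rose by 0.65, Lin28a by 1.00 and Sall4 by 0.21; the Lin28a call was lost without 2i replicate 1 (adjusted p = 0.128) and that of Sall4 without any 1 of the 4 arrays (adjusted p = 0.0537 to 0.199). Sox2 did not pass at -0.21. In AGP14 10 rose and none fell. Primordial germ cell genes fell in 6 of 10 cases, Prdm14 included, and rose in 1, Dppa3. Kit, the receptor of stem cell factor, fell from 8.88 and 9.16 to 6.90 and 7.03 (-2.06). The membrane protein genes Ifitm1 and Ifitm3 fell by -1.25 and -1.84 and were at 0.12 and 0.12 in AGP14, where neither passed.

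LIF was present in both media at the same dose. In the LIF and STAT3 list, 5 of 17 genes rose and 7 fell. The rises were 3 without 2i replicate 1, without serum replicate 1 and against AGP14 2i, and the additive model gave 2 rises and 1 fall. Pim1, a kinase gene that STAT3 induces, gave 9.24 and 8.60 in 2i and 10.62 and 10.42 in serum, a rise of 1.60 (SE 0.13, adjusted p = 2.77e-08). It fell in wild type by -0.50, and the difference was 2.10 (adjusted p = 4.88e-06). Knockout serum and AGP14 2i were level for Pim1 (0.01, adjusted p = 0.972). Its relative Pim3 rose by 1.5. Il6st, the gp130 subunit of the LIF receptor, fell by -0.82, and Stat3 itself, named after its value was seen, by -0.70.

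Fibroblast genes, the markers listed for feeder cells, were lower in serum. Of 25 measured, 21 fell and none rose, with a median of -2.30. The mean of the list was 8.85 and 8.97 on the knockout 2i arrays and 6.74 and 6.70 on the knockout serum arrays. Col1a1, the main fibrillar collagen gene, gave 9.79 and 9.96 in 2i and 4.48 and 4.41 in serum, the largest fall of all named genes (-5.43, SE 0.22). Col3a1 fell by -3.92, Col5a1 by -3.05, Col5a2 by -3.56 and Col1a2 by -3.39, the last with a further probe set of opposite sign. Of the 15 largest falls, Col1a1, Col3a1, Postn (-4.61), which encodes the matrix protein periostin, and the proteoglycan gene Lum (-3.69) were on the feeder list. B2m, the light chain gene of MHC class I, fell by -3.10 and is on the housekeeping list. AGP14 cells had 17 falls and 1 rise in the feeder list, with list means of 8.51 and 8.27 in 2i and 7.01 and 6.97 in serum. Knockout cells in serum with MEK inhibitor lay between, at 7.46 and 7.78. In bulk RNA, fewer feeder cells and less feeder RNA per cell cannot be told apart, and the part of feeder RNA in other falls was not tested.

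The other large falls were Plagl1, an imprinted zinc-finger gene, from 11.82 and 11.61 to 7.0 and 7.21 (-4.61), and Igf2, an imprinted growth factor gene, from 10.65 and 10.72 to 6.49 and 6.68 (-4.10). Apod, an apolipoprotein gene, fell by -4.47, the adhesion genes Ncam1 and Jam2 by -4.33 and -4.01, the secreted Wnt antagonist gene Sfrp1 by -3.92 and the alkaline phosphatase gene Alpl by -3.75. Calcoco2, an autophagy receptor gene, fell by -4.07 and the coatomer gene Copz2 by -4.04. In AGP14, 13 of the 15 largest falls also passed, all but Ncam1 (-0.93) and Sfrp1 (-1.31). The difference from AGP14, which crosses the lys sets, passed for Igf2 (-3.48), Ncam1 (-3.40), Jam2 (-2.91), Alpl (-2.41), Plagl1 (-2.64) and Copz2 (-1.94).

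Markers of other embryonic lineages went both ways. In the extraembryonic endoderm list 3 of 16 rose and 6 fell, beside 15.8% and 20.0% of all genes. Its defining factors Gata4 (-0.29), Gata6 (0.01) and Sox17 (0.27) did not pass. Of the falls, 5 were matrix genes such as Sparc (-1.82), which fibroblasts also express, and the sixth was the receptor gene Pdgfra (-0.89), named after its value was seen and lost without 2i replicate 1 or serum replicate 2. The additive model gave 1 rise and 3 falls. Lamb1 (1.02) and Amn (1.40) rose. Sparc and Lamb1 each have a further probe set of opposite sign. Of 11 mesoderm genes only Eomes fell (-0.55), a call lost without 2i replicate 2 or either serum replicate, and none rose. Neuroectoderm genes had 2 rises, Tubb3 (1.05) and Pax6 (1.27), and 2 falls, Sox1 (-3.00) and Zic1 (-1.30), among 11. The call of Pax6 was lost without any 1 of the 4 arrays (adjusted p = 0.0887 to 0.0936), that of Zic1 without replicate 1 of either medium (0.0567 and 0.0521), and that of Tubb3 without 2i replicate 1 (0.0584) or serum replicate 2 (0.077). Of 12 trophoblast genes 3 rose, among them the keratin gene Krt18 (3.23), and 4 fell, among them Gata3 (-1.84), lost without serum replicate 1 (adjusted p = 0.12). The trophoblast falls were 0 without serum replicate 1 and 1 without 2i replicate 2, and the rises 1 without 2i replicate 1. Of 5 genes of the 2-cell-like state none rose or fell.

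CHIR99021 was present in 2i and absent in serum. Of 13 genes that beta-catenin is known to activate, 8 fell and 1 rose, with a median of -1.05. The falls were 5 with probe sets averaged and 4 with dim genes left out of the test. On this list Cd44, Dkk1, Lgr5, Nkd1 and Znrf3 each have a further probe set of opposite sign. AGP14, within 1 set, had the same counts of 8 and 1 with a median of -0.56. Cdx1, a caudal homeobox gene, gave 6.94 and 6.91 in 2i and 3.38 and 3.17 in serum, a fall of -3.65 (SE 0.45). Its serum values lay near the lower quartile of the arrays (3.2 to 3.28), so the size is approximate. Axin2, the feedback scaffold of the pathway, fell by -1.50 (AGP14 -2.15). Sp5, a zinc-finger gene, went from 7.57 and 7.04 to 4.91 and 5.05, by -2.33 (SE 0.32), and fell by -2.90 in AGP14 and -2.60 in knockout serum with MEK inhibitor. Lef1, a nuclear partner of beta-catenin, was the single rise at 0.48; it was lost without 2i replicate 2 (adjusted p = 0.168) and serum replicate 1. The 250 bases before the start of Sp5, from RefSeq on GRCm38.p6, plus strand, chr2:70474673-70474922, are shown because they hold the TCF and LEF motif CTTTGAT, in capitals, with its first base 104 bases before the start:
Sp5: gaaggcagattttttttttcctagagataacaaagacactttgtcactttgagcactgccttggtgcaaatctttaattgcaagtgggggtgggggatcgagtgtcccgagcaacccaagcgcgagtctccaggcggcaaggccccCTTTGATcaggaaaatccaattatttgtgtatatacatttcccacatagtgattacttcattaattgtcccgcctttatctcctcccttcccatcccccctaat
On either strand the motif was in 1 of the 9 Wnt list members found in the RefSeq table and in 3.72% of 27025 genes. This match describes letters and shows no binding.

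Nodal and BMP genes were mixed. In the Nodal list 3 of 11 rose and 5 fell. The falls were 3 without serum replicate 2, after quantile normalization and against AGP14 2i, and the additive model gave 5 rises and 1 fall. Lefty1 rose by 1.32 and the SMAD repressor gene Skil by 1.77, and Lefty2 fell from 12.09 and 12.13 to 8.69 and 9.84 (-2.85). Of the 11 BMP genes 3 rose and 3 fell. Id1, a direct target of BMP signalling, rose from 6.36 and 6.94 to 9.27 and 9.20 (2.58, SE 0.28), and by 2.06 in AGP14. Id2 rose by 1.66 and Id4 fell by -2.63.

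Genes of lipid synthesis fell in every comparison within 1 set as well. Of 19 cholesterol synthesis genes 13 fell and none rose, with a median of -0.64. AGP14 had 18 falls with a median of -0.62, and knockout serum with MEK inhibitor 17 falls with a median of -0.74. Srebf2, the transcription factor gene of the pathway, gave 9.86 and 9.93 in 2i and 8.84 and 9.04 in serum, a fall of -0.96 (SE 0.07, adjusted p = 9.91e-09). Among its enzymes Nsdhl fell by -1.01, Sc5d by -1.35 and Ebp by -1.91. Hmgcs1, which makes HMG-CoA, fell from 12.36 and 12.38 to 11.70 and 11.77 (-0.64, SE 0.07), by -0.32 in AGP14 and by -1.05 in wild type. The cholesterol falls were smaller than those of wild type for 7 of 19 genes in the test of the difference, beside 1.36% of all genes more positive. The 250 bases before the start of Hmgcs1 (RefSeq, GRCm38.p6, plus strand, chr13:119690101-119690350) are shown for the sterol regulatory motif TCACNCCAC, which SREBP proteins bind; its match, in capitals, begins 137 bases before the start:
Hmgcs1: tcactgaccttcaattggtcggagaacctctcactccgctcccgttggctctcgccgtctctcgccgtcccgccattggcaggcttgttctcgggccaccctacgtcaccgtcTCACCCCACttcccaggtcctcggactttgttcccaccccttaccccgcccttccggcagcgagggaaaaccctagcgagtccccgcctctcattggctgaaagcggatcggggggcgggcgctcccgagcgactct
On either strand the motif was in 1 of 16 cholesterol genes found in the table, in none of 8 fatty acid genes and in 1.22% of 27025 genes.

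Of 11 fatty acid genes 7 fell and 1 rose, with a median of -0.58. Scd1, a stearoyl-CoA desaturase, gave 11.64 and 11.60 in 2i and 8.70 and 8.88 in serum, a fall of -2.83 (SE 0.09, adjusted p = 2.77e-13). Its relative Scd2 fell by -1.73, malic enzyme Me1 by -1.62 and the desaturase gene Fads1 by -1.67. In AGP14 these 4 fell by -2.23, -1.66, -1.11 and -1.50. Acaca, the gene of acetyl-CoA carboxylase, rose by 0.52, a call lost without 2i replicate 2 (adjusted p = 0.0972) or serum replicate 1 (adjusted p = 0.118). It was named after its value was seen, and its further probe set stood at -0.015.

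**Figure D2:**
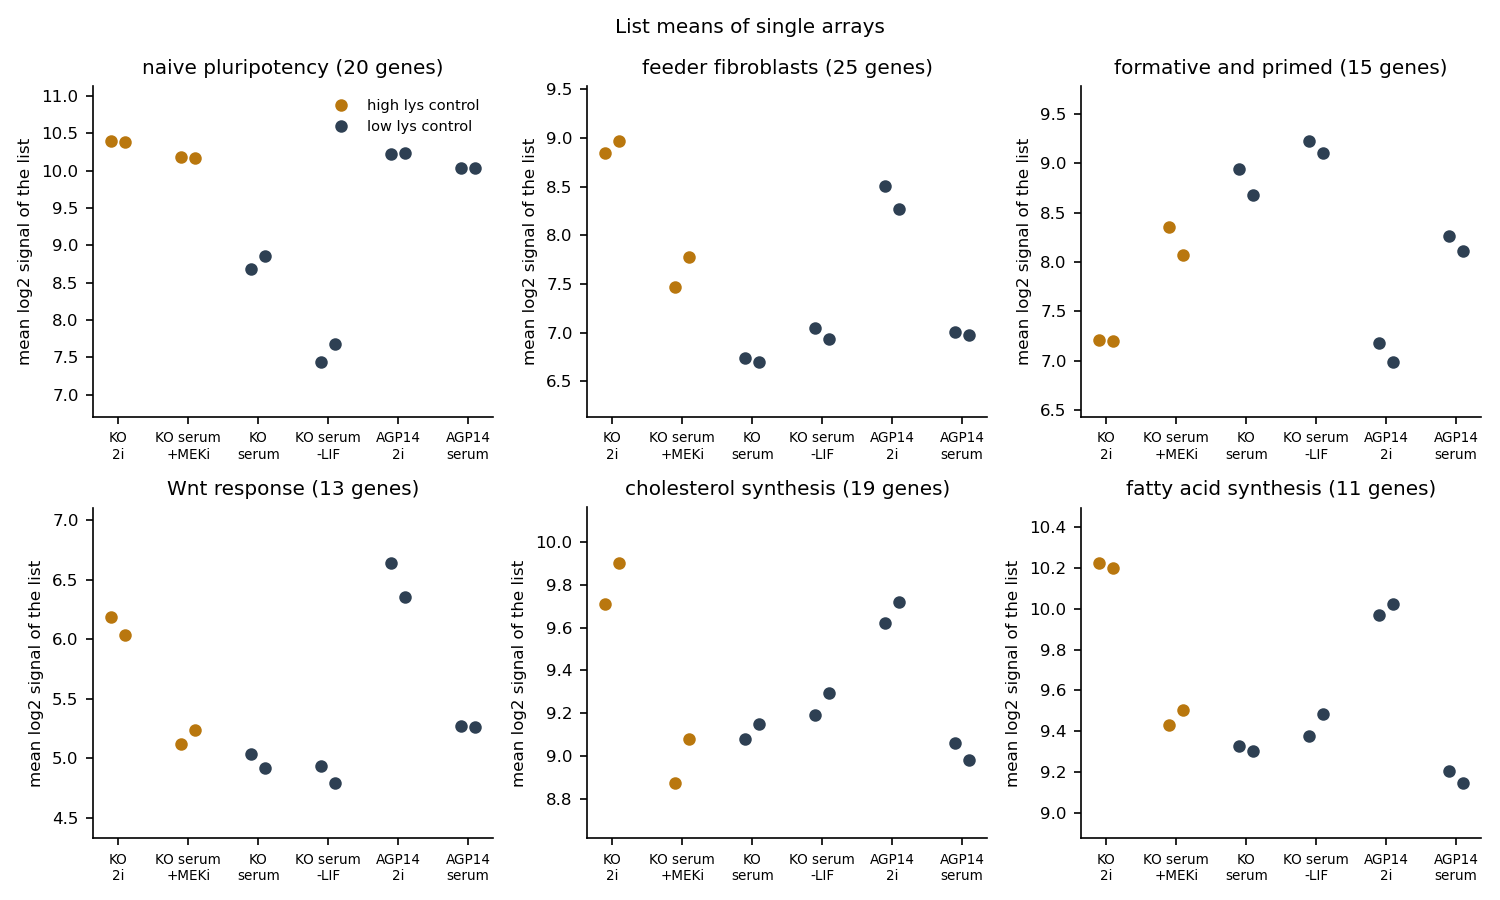
Mean log2 signal of 6 gene lists on single arrays of knockout (KO) and AGP14 cells, 2 per group; orange points are arrays with a high lys control and dark points arrays with a low one. The feeder mean falls from 8.85 and 8.97 in knockout 2i to 6.74 and 6.70 in knockout serum, and the naive mean stays above 10 in both AGP14 media; the vertical axes do not start at 0.

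In the amino acid stress list 8 of 16 rose and 3 fell, with a median of 0.49, beside 8 and 2 in AGP14; without serum replicate 2 it had 1 fall. Among the rises were genes of serine synthesis: Psph rose from 10.18 and 10.12 to 11.53 and 11.48 (1.35, SE 0.11), Phgdh by 0.98, Psat1 by 0.88 and the mitochondrial folate gene Mthfd2 by 1.43. Asns, of asparagine synthesis, fell by -0.43. The rises of Phgdh, Psph, Psat1 and Mthfd2 were larger than in AGP14, by 0.57 to 0.76, across the lys sets. Glycolysis genes had 4 rises and 6 falls among 15, or 8 and 3 against AGP14 2i. Pdk1, which closes the pyruvate dehydrogenase gate, rose by 1.46, and the glucose transporter genes went opposite ways, Slc2a1 by 1.09 and Slc2a3 by -1.15, while hexokinase Hk1 fell by -1.72.

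Respiratory chain genes shifted slightly down: 17 of 24 fell and 1 rose, with a median of -0.21. Sdha fell by -0.73, with a further probe set of opposite sign, and Uqcrc1 by -0.49. The counts moved with the scaling and with 1 array: 10 fell and 3 rose after quantile normalization, 11 fell without serum replicate 2, and AGP14 had 7 falls with a median of -0.047. Genes of G2 and mitosis rose in 8 of 20 cases and fell in 2, with a median of 0.11, Cdc20 by 0.65 and Bub1 by 0.51; the count of rises was 3 with the mean of probe sets and 5 without 2i replicate 2 or either serum replicate. In AGP14 15 rose, and 17 were higher in knockout serum than in AGP14 2i. The p53 list had 7 falls and 2 rises among 10, or 1 rise without 2i replicate 1, and among the falls were the cell cycle inhibitor gene Cdkn1a (-1.06) and the death receptor gene Fas (-3.65).

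Of the remaining lists, polycomb complexes had 4 rises and 5 falls among 16 genes, adhesion 4 and 5 among 13, targets of SRF and YAP 1 and 4 among 12, retinoid response 1 and 1 among 8, and housekeeping 1 and 3 among 11. Their medians lay between -0.03 and 0.085. Over all genes 15.8% rose and 20.0% fell. With 1 array left out, falls of SRF and YAP targets were 2 without replicate 2 of either medium. Retinoid genes had 0 rises without 2i replicate 1 and 0 rises with 2 falls without serum replicate 1, and housekeeping genes 0 rises without serum replicate 2. Against AGP14 2i the SRF and YAP list had 4 rises and 0 falls and the polycomb list 7 and 3.

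Of the Myc family, 3 of 8 rose and 3 fell, while against AGP14 2i 1 was lower. Mycn gave 10.16 and 10.32 in 2i and 11.95 and 12.20 in serum, a rise of 1.83 (SE 0.14, adjusted p = 8.65e-09). Mycl rose by 2.00, to 7.84 and 7.95, and was at -0.30 in AGP14, whose 2i mean was 8.24. Among 19 imprinted genes 3 rose and 5 fell, beside 15.8% and 20.0% of all genes. The rises were 1 without 2i replicate 2 or serum replicate 1, and against AGP14 2i 10 were higher and 4 lower. Peg3 rose by 1.38, with a further probe set of opposite sign, and Nnat by 2.76, lost without 2i replicate 2 (adjusted p = 0.0721) or serum replicate 1 (0.062), while Sgce fell from 8.99 and 8.87 to 7.50 and 7.82 (-1.27). Within the low lys set Sgce was higher in knockout serum than in AGP14 2i (0.80, limma adjusted p = 0.00499). The line also differs in that comparison, so it does not show whether the knockout fall is absent within 1 set. Sgce rose in wild type by 1.00, and the difference from knockout was -2.27 (SE 0.28, limma adjusted p = 2.49e-04).

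**Figure D3:**
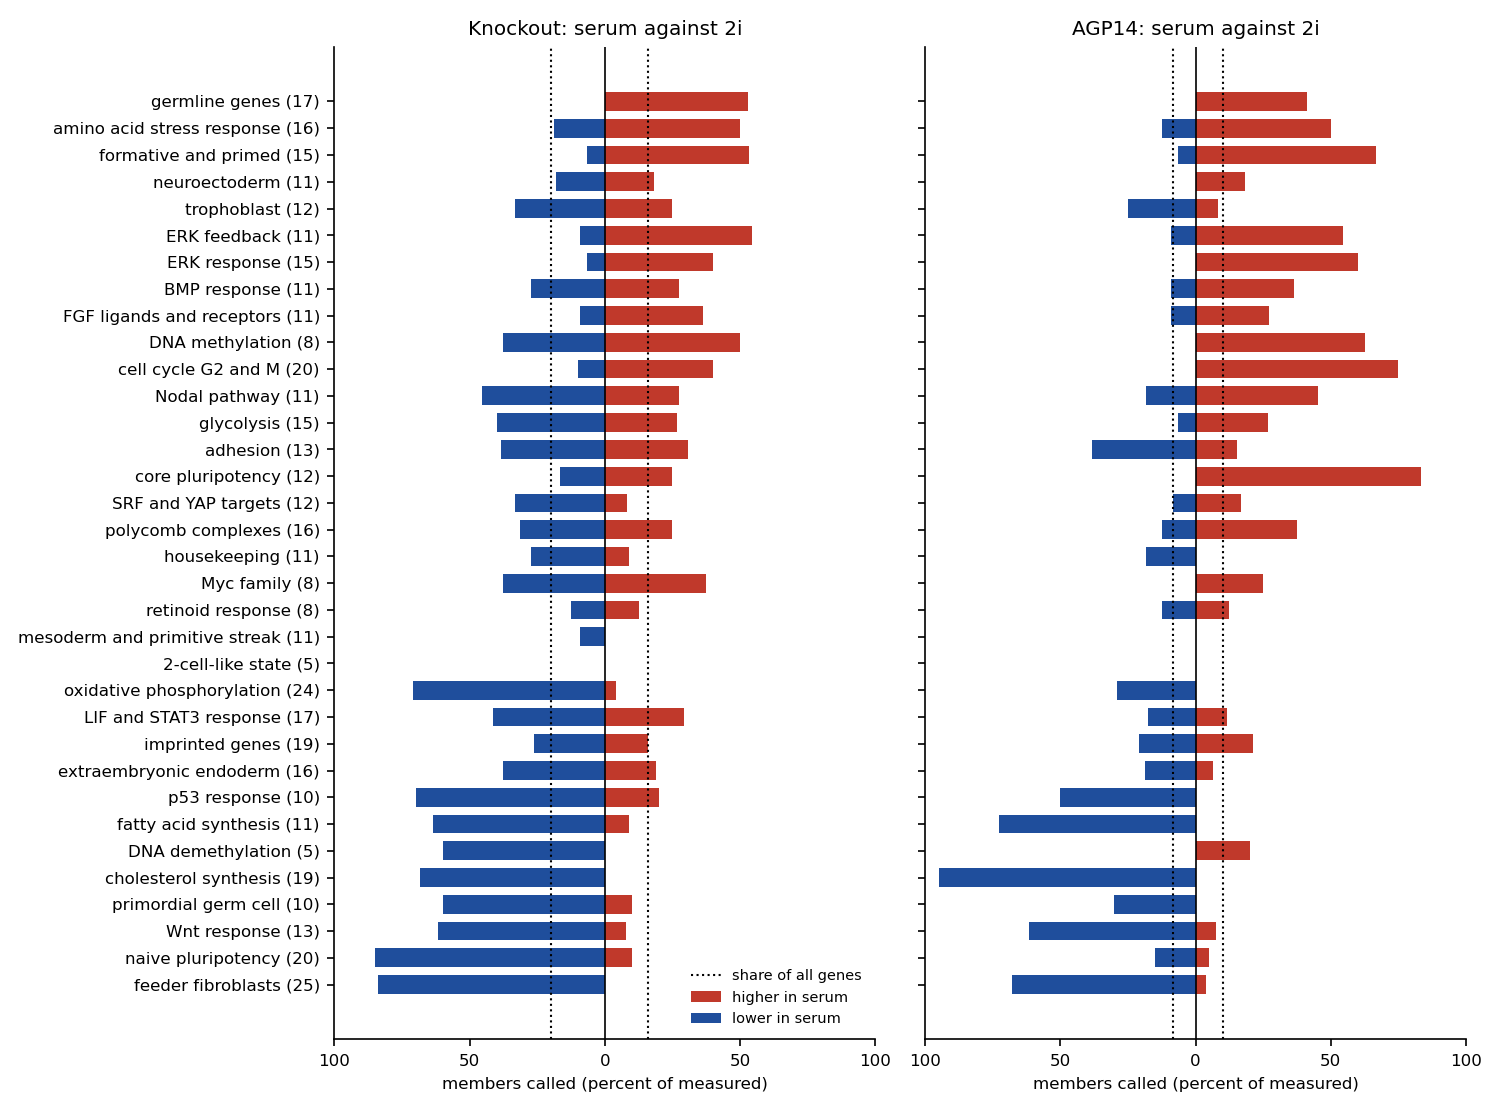
Share of the measured members of 34 gene lists called higher (red, right) or lower (blue, left) in serum than in 2i, in knockout cells and in AGP14 cells, with the number of measured genes after each name; dotted lines are the shares over all 18193 genes, 15.8% higher and 20.0% lower in knockout, 9.97% and 8.22% in AGP14. In knockout the feeder and naive lists reach furthest to the left, while in AGP14 the naive bars are short and the cholesterol bar is the longest to the left.

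Wild-type cells were compared in the same 2 media, which cross the lys sets in the same way, so that an additive shift between sets cancels in the difference of the 2 lines. Wild type had 2760 rises (15.2%) and 3526 falls (19.4%). It shared 1806 rises (62.9% of the knockout and 65.4% of the wild-type rises) and 2606 falls (71.7% and 73.9%). Any shift between the sets would enter both changes in the same direction, so medium and set cannot be told apart in this overlap. The difference of the 2 changes passed for 541 genes, 247 more positive (1.36%) and 294 more negative (1.62%) in the arrays labelled knockout. Most negative were Nt5e, an ecto-nucleotidase (-4.51), the hormone precursor gene Trh (-3.30), Dnmt3l, Enox1 (-3.04) and Prdm14. Nt5e went from 10.82 and 10.24 to 8.71 and 8.21 in knockout and rose by 2.44 in wild type, with a further probe set of opposite sign in the knockout arrays. Trh (-0.49) and Enox1 (-0.005) did not pass in knockout and rose in wild type by 2.81 and 3.04. Most positive were 2300002M23Rik (3.30), the matrix protease gene Mmp3 (2.34), Gdpd1 (2.33), 4933402E13Rik (2.31), whose knockout rise of 1.09 was lost without 3 of the 4 arrays, and the potassium channel gene Kcnk1 (2.23). The naive list differed for 2 of 20 genes, Prdm14 and Zfp42 (-0.65), both more negative in knockout, and its median difference was -0.65. The count of 541 rests on the pooled spread: a model of the 8 arrays alone called 5 and 10. Single arrays moved it too: it was 151 and 161 without knockout 2i replicate 1, 93 and 131 without knockout serum replicate 1, 122 and 158 without knockout serum replicate 2, 113 and 156 without wild-type 2i replicate 1, and 159 and 145 without wild-type serum replicate 2.

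Against AGP14 the difference of the changes passed for 2589 genes, 817 more positive (4.49%) and 1772 more negative (9.74%), or 1566 and 1109 after quantile normalization, which moved the median difference from -0.015 to 0.10. It contains the shift between lys sets as well as any effect of the transgene, and the 2 cannot be told apart. The more positive count was 539 without knockout serum replicate 1, 531 and 488 without AGP14 2i replicate 1 or 2, and 528 without AGP14 serum replicate 2, and the more negative count was 1178 without AGP14 serum replicate 1. Most negative were the muscle fusion gene Mymx (-3.75), Igf2, Ncam1, Septin1 (-3.23) and the adhesion receptor gene Adgre5 (-3.04). Most positive were Psors1c2 (3.06), the carbonic anhydrase gene Car2 (2.96), Mmp3 (2.78), Prickle1 (2.74), whose further probe sets were of opposite sign in knockout, and 2300002M23Rik (2.66). Mmp3 rose from 5.81 and 6.24 to 8.97 and 8.99 in knockout and was level between knockout serum and AGP14 2i (-0.16, adjusted p = 0.803), so that the low value was that of knockout 2i.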

How the data were processed

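RNA of 26 samples was measured on Affymetrix arrays, 1 array each. The authors deposited 1 log2 value per probe set; base 2 was inferred from the highest value, 13.89, below the limit of a 16-bit scanner. Image analysis and normalization methods, not given in the sources used here, could shift all differences. Of 45100 probe sets, 64 were controls, 9160 had no listed gene, 932 had several and 34944 had 1. For each of 18193 genes the probe set with the highest mean over 26 arrays was kept; 9010 genes had several, and 18032 matched RefSeq. limma 3.58.1 in R 4.3.3 fitted 1 coefficient per group with an intensity trend (13 residual degrees of freedom, 5.05 prior). Each test was two-sided, with Benjamini-Hochberg adjustment, and the number of arrays limits their precision. The script was tested on simulated data.

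Genes named were the 15 largest called rises and falls with arrays apart and a mean of at least 5, up to 5 per list by smallest p, and 5 each way for each difference of changes; others are said to be named after their values were seen or did not pass. The members and the 34 lists were chosen with earlier results of these data known. Alternatives were replicate blocks, fewer arrays, no trend, quantile normalization, the mean of probe sets, a filter on dim genes, a floor of 3, each array left out, and, added after seeing the data, AGP14 2i arrays in place of knockout 2i; an additive model with lys set was planned. Promoter windows came from RefSeq. Tables and plots used Python 3.11.15, pandas 2.3.3, numpy 2.4.6 and matplotlib 3.10.9.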

Additional observations from a re-analysis of the deposited data

Results flagged for a closer look

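Differences between the lines in the change from 2i to serum were tested with limma as the difference of 2 changes, called at an adjusted p under 0.05; groups of 2 arrays were not searched for single deviating arrays. Values are log2, knockout minus the other line. Against wild type the test passed for 541 genes. Among genes named in the text, knockout was more positive for Fgf15 (1.335), Dazl (1.47), Pim1 (2.1), Igf2 (0.975), Hmgcs1 (0.415), Scd1 (0.78), Psat1 (0.47), Kcnk1 (2.235), Mmp3 (2.34), 2300002M23Rik (3.3), Gdpd1 (2.33) and 4933402E13Rik (2.31). It was more negative for Prdm14 (-2.805), Fgfr1 (-1.11), Myc (-1.295), Dnmt3b (-1.75), Dnmt3l (-3.105), Tet1 (-0.455), Zfp42 (-0.65), Gdf3 (-0.63), Ifitm1 (-0.855), Ncam1 (-2.08), Copz2 (-1.885), Gata3 (-2.605), Lefty2 (-2.425), Pdk1 (-1.52), Sgce (-2.275), Nt5e (-4.51), Trh (-3.295) and Enox1 (-3.04).

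Against AGP14, where the 2i arrays lie in different lys sets, the test passed for 2589 genes. Of the named genes, Pou3f1 (2.44), Cnn1 (2.125), Vrtn (1.945), Irs4 (1.63), Slc27a2 (1.725), Psors1c2 (3.06), Fgf15 (1.57), Fgf17 (0.67), Dusp6 (1.205), Pim1 (1.37), Lamb1 (1.1), Amn (1.43), Krt18 (2.125), Phgdh (0.695), Psph (0.76), Psat1 (0.565), Mthfd2 (0.61), Mycn (0.805), Mycl (2.295), Kcnk1 (1.89), Mmp3 (2.785), Car2 (2.96), 2300002M23Rik (2.665), 4933402E13Rik (2.02) and Prickle1 (2.745) were more positive in knockout. Those more negative were Prdm14 (-2.52), Egr1 (-2.675), Junb (-0.74), Fos (-2.265), Dusp14 (-1.23), Dnmt3l (-1.085), Zfp57 (-1.74), Tet1 (-1.23), Tet2 (-2.335), Nanog (-2.125), Tfcp2l1 (-2.835), Zfp42 (-0.785), Tbx3 (-2.62), Esrrb (-2.125), Klf4 (-1.69), Gdf3 (-1.165), Pou5f1 (-0.47), Kit (-1.065), Ifitm1 (-1.37), Ifitm3 (-1.965), Il6st (-0.41), Col1a1 (-1.14), Col5a1 (-0.79), Col5a2 (-0.87), Col1a2 (-0.975), B2m (-1.045), Plagl1 (-2.645), Igf2 (-3.485), Ncam1 (-3.405), Jam2 (-2.915), Alpl (-2.41), Copz2 (-1.935), Gata3 (-2.275), Sox1 (-3.54), Id4 (-1.4), Srebf2 (-0.4), Sc5d (-0.545), Ebp (-1.17), Hmgcs1 (-0.315), Scd1 (-0.6), Slc2a3 (-0.8), Sdha (-0.465), Uqcrc1 (-0.455), Enox1 (-2.21), Mymx (-3.755), Septin1 (-3.23), Adgre5 (-3.045), Nr5a2 (-2.435) and Stat3 (-0.72).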

How the results depend on the processing

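The number of arrays, 2 a group, limits all values. The knockout counts of 2872 rises and 3634 falls were 2180 to 2342 and 3012 to 3115 with 1 array left out, and 2978 and 3766 with a replicate block. Replicate differences correlated at 0.412 to 0.639 over 11379 genes in all 6 pairs of knockout groups (0.444 for 2i and serum). Samples of the same number thus deviated together, but with 2 numbers a line this gives only 1 contrast, and no label says what a number marks. The block changed no call among 154 named genes. It moved the count of falls from 1 to 2 in the FGF and in the ERK response list, and a block by line moved the falls of the ERK feedback list to 4. The named genes kept their direction and call in 141 to 143 cases with 1 array left out, and in 150 after quantile normalization. With AGP14 2i in place of knockout 2i, chosen after seeing the data, 123 did so, and in the additive model 89; these gave 2408 and 1491 falls. For wild type 1450 rises and 2214 falls were called in the compared arrays alone. The knockout minus wild-type counts, 247 and 294, were 755 and 929 with a block by line, 5 and 10 in the compared arrays alone, 150 and 175 without the trend and 142 and 159 with probe sets averaged. The knockout minus AGP14 counts, 817 and 1772, were 1456 and 2700 with a block by line and 1566 and 1109 after quantile normalization. Leaving out 1 array gave 850 to 1393 rises and 835 to 1088 falls in AGP14, 1938 to 2584 and 2903 to 3073 in wild type, 93 to 263 and 131 to 279 for the wild-type difference, and 488 to 694 and 1178 to 1507 for the AGP14 difference. Against AGP14 2i the direction turned for Fos (1.21), Dazl (-0.025), Dppa3 (-0.065), Eomes (0.325), Mycl (-0.35), Sgce (0.80), Enox1 (1.135), Mmp3 (-0.16), 2300002M23Rik (-3.255), 4933402E13Rik (-0.95), Adgre5 (0.425), Gata6 (-0.08), Gbx2 (-0.56) and Sox17 (-0.005). In the additive model it turned for Fos (1.422), Tet1 (0.574), Tet2 (0.788), Esrrb (0.315), Gdf3 (0.331), Pou5f1 (0.114), Ifitm1 (0.244), Ifitm3 (0.204), Amn (-0.141), Gata3 (0.431), Sox1 (0.198), Eomes (0.162), Mycl (-0.304), Trh (0.038), Enox1 (2.672), Mymx (1.698), 2300002M23Rik (-2.418), Gdpd1 (-0.053), 4933402E13Rik (-0.81), Septin1 (0.873), Adgre5 (0.77), Prickle1 (-0.507), Gata4 (0.378), Gata6 (-0.238), Nr5a2 (0.119), Sox2 (0.178), Stat3 (0.093) and Pdgfra (0.068). Differences of genes that did not pass also turned: Enox1 (0.168) and Dppa5a (-0.001) after quantile normalization and Gata6 (-0.06) with probe sets averaged. With 1 array left out, values ran from -0.47 to 0.46 for Enox1, from -0.01 to 0.02 for Dppa5a, from -0.62 to 0.03 for Gata4, from -0.07 to 0.08 for Gata6 and from -0.07 to 0.61 for Sox17. The cause was not tested.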
